A study of Homo sapiens with 8 samples.

Results

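The genes described here are a set of DNA damage checkpoint, homologous recombination, Fanconi anaemia and mismatch or uracil repair genes, chosen by name and each read from its brightest probe set. Of 32 genes in the set, 28 were measured, out of 19775 genes on the array. BRCA2, FANCA and FANCD2 were not analysed here, and PMS2 was left out because its probe sets also list its pseudogene PMS2CL. The cells were CUTLL1, a human T-cell acute lymphoblastic leukaemia line that depends on active NOTCH1 signalling, and all arrays come from this single line. Each of 4 groups held 2 arrays, and all cells were harvested after 48 hours. The first group received 1 microM PF-03084014 together with 1 microM dexamethasone (called the combination), the second 1 microM PF-03084014 alone, the third 1 microM dexamethasone alone, and the fourth the vehicle DMSO. PF-03084014 inhibits gamma-secretase, the protease whose cut sets the active part of NOTCH1 free. Dexamethasone is a synthetic glucocorticoid, a drug class that kills lymphoid leukaemia cells. The study asked which transcripts respond to each drug and to both together. Whether the 2 arrays of a group came from separate cultures was not given, so p-values measure the spread between these arrays, which may be technical.

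Homologous recombination repairs a double-strand break, or a broken replication fork, by copying the undamaged sister chromatid. The break is sensed by the MRE11-RAD50-NBN complex, its ends are cut back, and BRCA1, PALB2 and BRCA2 prepare the resected end for the search for the matching sequence. The Fanconi pathway unhooks crosslinks between the strands and hands the resulting break to the same machinery, while ATM and ATR stop the cell cycle until repair is done. Many of these genes are transcribed mainly as cells enter and pass through S phase, so dividing leukaemia cells express them highly.

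The 8 arrays had median intensities of 61.8 to 76.3, with the highest on combination replicate 2, and between 13.2% and 15.2% of probe sets lay at or below an intensity of 16, used as the floor. The combination replicates differed more than those of any other group, with an SD of 0.55 on the log2 scale between the pair over all genes, against 0.33 for PF-03084014, 0.34 for dexamethasone and 0.36 for DMSO. All 16 measured T-lineage markers were above an intensity of 100 on every array. Their summed intensity was 89782 to 100231 per array, and that of the 7 measured B-lineage markers was 862 to 1487. The probe set of 1 of the 28 repair genes, XRCC3, lay below the median intensity of all genes.

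In cells given the combination, 12 of the 28 repair genes were lower than in DMSO and 2 were higher, at an adjusted p under 0.05 in limma's moderated test. The 12 that fell were CHEK2, CLSPN, EXO1, BRCA1, RAD51C, RAD51AP1, RAD54L, RAD54B, FANCG, FANCL, MSH6 and UNG, with log2 changes between -0.99 and -0.28. ATM and NBN rose. Neither drug alone gave a call for any of the 28 genes. Over all 19775 genes, 11.9% were called in the combination against DMSO, 5.52% lower and 6.42% higher. The share of the 28 genes that was higher, 7.14%, was near that of all genes. The median change of the 28 genes was -0.36 on the log2 scale, beside 0.064 over all genes. On both combination arrays, 21 of the 28 genes lay below both DMSO arrays and 3 (ATM, NBN and FANCC) lay above them, where 21.5% of all genes lay below and 29.1% above. The estimate was below 0 for 24 of the 28, against 43.8% of all genes. Of 27 measured proliferation markers, 16 were also lower and none higher, and their part in the repair gene changes was not tested. In bulk RNA, fewer cells of a kind (such as cells in S phase) and less RNA per cell cannot be told apart. Because the probe sets of the repair genes are brighter than most, the fit was also run without the genes below the median intensity. There 14 of 27 repair genes were lower and 3 higher, beside 15.3% lower and 15.9% higher among the 9888 genes kept.

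The calls rest on a spread pooled over all 8 arrays. A fit of the combination and DMSO arrays alone called none of the 19775 genes. With either DMSO array left out, 7 of the 28 genes were called, namely EXO1, RAD54L, RAD54B, FANCG, FANCL, MSH6 and UNG, and the calls over all genes fell to 4.18% without DMSO replicate 1 and 4.4% without DMSO replicate 2. These 7 were called in each of the 8 fits that left out 1 array, and all 14 called genes kept their sign in those fits. With all arrays shifted to the same median, 16 of the 28 genes were called, and the share of called genes that were higher was 31.9% of 1441 genes, beside 53.8% of 2360 without the shift.

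**Figure D1:**
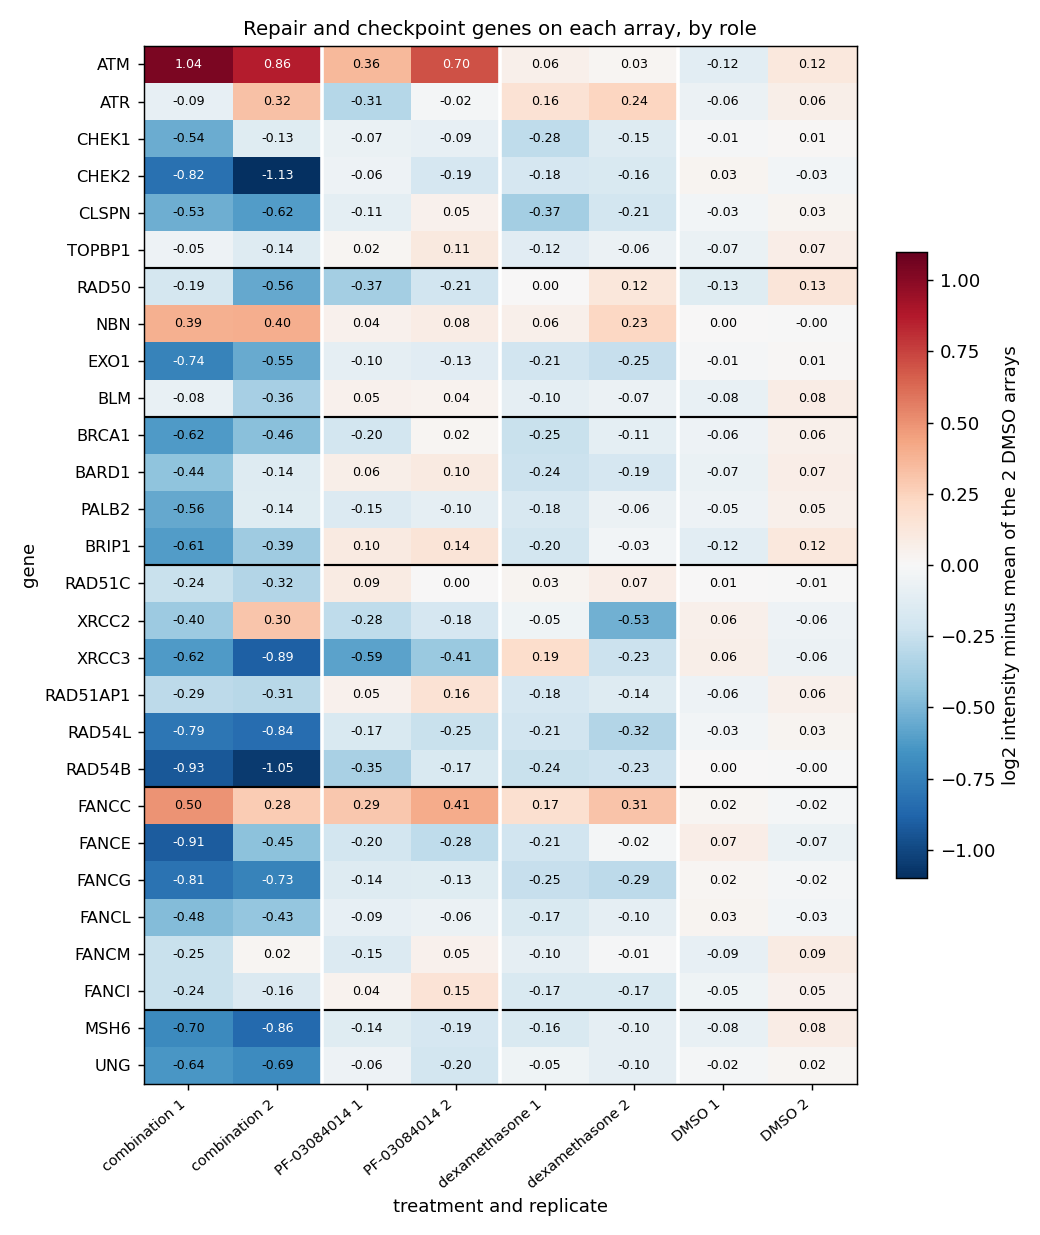
Each cell is the log2 intensity of a gene on an array minus its mean over the 2 DMSO arrays, for 28 genes (rows, separated by role) and 8 arrays (columns, by treatment). The deepest blue (lower) cells are in the combination columns, and ATM, NBN and FANCC are red (higher) on both of them. Cells below 0 number 25 and 22 on the combination arrays, beside 21 and 22 with dexamethasone and 18 and 15 with PF-03084014.

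Promoter sequences were set beside these changes. RefSeq windows from 250 bases before to 50 bases after an annotated start (GRCh38.p14) were at hand for 25 of the 28 genes, 37 windows in all. The following 6 are shown because 5 belong to genes that fell and hold an E2F-like motif, and the last belongs to ATM, which rose and holds none. E2F factors drive S-phase genes. Capitals mark matches on either strand to TTTNNCGC (E2F-like), CCAAT (the NF-Y box) or TTTGAA (the CHR, bound by repressor complexes of cell cycle genes), and no matches overlapped. The windows are chr22:28741771-28742070 (minus strand) for CHEK2, chr1:35769929-35770228 (minus) for CLSPN, chr1:241847954-241848253 (plus) for EXO1, chr2:47782895-47783194 (plus) for MSH6, chr12:109097922-109098221 (plus) for UNG and chr11:108222817-108223116 (plus) for ATM.
CHEK2: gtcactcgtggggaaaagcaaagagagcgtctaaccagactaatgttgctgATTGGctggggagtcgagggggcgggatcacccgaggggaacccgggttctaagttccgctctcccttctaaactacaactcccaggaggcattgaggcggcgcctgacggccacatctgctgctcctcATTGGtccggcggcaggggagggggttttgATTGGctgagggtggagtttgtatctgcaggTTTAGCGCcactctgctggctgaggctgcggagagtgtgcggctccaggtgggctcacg
CLSPN: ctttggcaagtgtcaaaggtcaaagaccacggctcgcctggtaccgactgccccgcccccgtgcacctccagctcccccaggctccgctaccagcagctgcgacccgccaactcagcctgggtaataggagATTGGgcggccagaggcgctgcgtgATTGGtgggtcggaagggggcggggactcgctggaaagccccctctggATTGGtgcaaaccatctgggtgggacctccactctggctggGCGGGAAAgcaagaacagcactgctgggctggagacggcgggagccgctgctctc
EXO1: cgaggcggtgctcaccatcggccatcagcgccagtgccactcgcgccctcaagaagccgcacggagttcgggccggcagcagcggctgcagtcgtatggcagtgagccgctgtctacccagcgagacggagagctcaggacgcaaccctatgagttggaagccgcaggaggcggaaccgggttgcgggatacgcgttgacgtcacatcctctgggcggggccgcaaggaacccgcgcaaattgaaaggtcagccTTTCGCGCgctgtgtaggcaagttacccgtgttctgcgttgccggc
MSH6: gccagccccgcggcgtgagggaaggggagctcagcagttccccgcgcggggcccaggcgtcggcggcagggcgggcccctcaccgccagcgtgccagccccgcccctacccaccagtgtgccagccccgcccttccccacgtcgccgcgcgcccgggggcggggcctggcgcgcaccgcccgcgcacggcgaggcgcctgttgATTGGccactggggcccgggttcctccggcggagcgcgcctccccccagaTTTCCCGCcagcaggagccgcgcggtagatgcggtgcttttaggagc
UNG: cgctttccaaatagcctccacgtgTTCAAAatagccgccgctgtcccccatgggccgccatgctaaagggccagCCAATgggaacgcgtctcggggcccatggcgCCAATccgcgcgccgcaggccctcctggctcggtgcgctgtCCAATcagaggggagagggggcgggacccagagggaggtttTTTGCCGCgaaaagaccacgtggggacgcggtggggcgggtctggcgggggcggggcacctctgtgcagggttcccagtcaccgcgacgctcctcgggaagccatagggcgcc
ATM: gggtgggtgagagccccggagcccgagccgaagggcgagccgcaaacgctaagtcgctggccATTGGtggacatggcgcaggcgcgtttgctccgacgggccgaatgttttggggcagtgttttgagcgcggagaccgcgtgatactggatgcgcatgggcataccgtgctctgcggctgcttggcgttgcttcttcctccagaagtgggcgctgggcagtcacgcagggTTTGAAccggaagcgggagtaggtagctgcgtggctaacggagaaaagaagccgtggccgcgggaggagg

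The E2F-like motif was found in 9 of the 37 windows (24.3%) and in 6.89% of all 35116 RefSeq windows of the same length. The genes with it were CHEK2, CLSPN, EXO1, FANCC, MSH6, TOPBP1, UNG and XRCC2, and the other windows of MSH6 and UNG hold none. It was thus present in 8 of the 25 genes that had a window. These were 5 of the 11 fallen genes with a window and also FANCC, TOPBP1 and XRCC2, which were not called. CCAAT was found in 19 of 37 windows (51.4%), against 34.6% of all windows, and TTTGAA in 4 (10.8%), against 15.2%. A match is a description of the letters and not a binding site.

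Among the checkpoint kinases and their mediators, CHEK2 and CLSPN fell in the combination, ATM rose, and ATR, CHEK1 and TOPBP1 did not pass the test. CHEK2, an effector kinase that acts below ATM, had intensities of 279 and 225 in the combination, 472 and 432 with PF-03084014, 433 and 439 with dexamethasone and 503 and 481 in DMSO. Both combination arrays lay far below the other 6. Its log2 change in the combination against DMSO was -0.97 ± 0.12 (SE, 2 arrays per group, adjusted p = 0.0101), while the change was -0.12 ± 0.12 with PF-03084014 and -0.17 ± 0.12 with dexamethasone. CLSPN (claspin), the adaptor through which ATR activates CHEK1, read 650.2 and 615 in combination-treated cells, 872 and 973 in PF-03084014 cells, 727 and 817 in dexamethasone cells and 922 and 963 in DMSO cells. The combination values were again the lowest of the 8, and the dexamethasone values lay between them and DMSO. The change in the combination was -0.58 ± 0.086 (adjusted p = 0.0166), with -0.032 for PF-03084014 and -0.29 for dexamethasone. Averaged over its probe sets, CLSPN was not called (-0.23, adjusted p = 0.279).

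ATM, the kinase that answers double-strand breaks, moved the other way, with 1817 and 1609.8 (combination), 1137 and 1442 (PF-03084014), 922 and 901 (dexamethasone) and 816 and 960.3 (DMSO). The combination arrays were highest, the PF-03084014 arrays came next, and the dexamethasone arrays lay within the DMSO range. ATM changed by 0.95 ± 0.14 in the combination (adjusted p = 0.0166) and by 0.53 ± 0.14 with PF-03084014, which was not called (adjusted p = 0.198). Its change with dexamethasone was 0.042. Of its 5 dimmer probe sets, 1 was also called higher, at 0.75 (adjusted p = 0.0499 over probe sets), and others read 0.37, 0.15 and 0.077, while the dimmest lay below the floor of 16 on all 8 arrays. When all probe sets of the gene were averaged, the change was 0.38 (adjusted p = 0.0824). TOPBP1, which activates ATR, read 3692 and 3471 in the combination, 3881 and 4136 with PF-03084014, 3517 and 3662 with dexamethasone and 3642 and 4025 in DMSO. Its combination arrays overlapped DMSO, and its change was -0.10 ± 0.067 (adjusted p = 0.398). ATR, the kinase of stalled forks, changed by 0.11 ± 0.16 (adjusted p = 0.694), and its 2 combination arrays (1096 and 1460.2) lay on either side of the DMSO arrays (1121 and 1219). CHEK1, the effector kinase below ATR, read 1456 and 1940.0 in the combination and 2103 and 2142 in DMSO, a change of -0.34 ± 0.14 (adjusted p = 0.182). The 3 dimmer probe sets of CHEK1 read lower than this, at -0.67, -0.66 and -0.62, and 2 of them were called (adjusted p over probe sets 0.00389 and 0.0242).

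Of the end-sensing, resection and helicase genes, EXO1 fell and NBN rose, and RAD50 and BLM were not called. EXO1, the exonuclease that cuts back the broken strand and also serves mismatch repair, had 963 and 1096 in combination-treated cells, 1501 and 1471 in PF-03084014 cells, 1391 and 1351 in dexamethasone cells and 1592 and 1621 in DMSO cells. The combination arrays stood well below all others, and the dexamethasone arrays lay below both DMSO arrays. The change was -0.65 ± 0.067 in the combination (adjusted p = 0.00673), -0.11 with PF-03084014 and -0.23 with dexamethasone. NBN (nibrin), the subunit that recruits ATM to breaks, gave 2390.3 and 2394 (combination), 1876 and 1927 (PF-03084014), 1892 and 2129 (dexamethasone) and 1823 and 1813 (DMSO) on its brightest probe set. The 2 combination values were nearly equal and above all others, a change of 0.40 ± 0.061 (adjusted p = 0.0177). Its 4 dimmer probe sets did not share a direction, at 0.14, 0.27, -0.49 and -0.93 with none called. Averaged over its probe sets, NBN changed by -0.12, and after the arrays were shifted to the same median the change was 0.27 (adjusted p = 0.238). RAD50, the ATPase of the same complex, read 1392 and 1079 in the combination and 1452 and 1743 in DMSO (-0.38 ± 0.15, adjusted p = 0.187). BLM, the helicase that dissolves recombination intermediates, read 2155 and 1772 in the combination, 2363 and 2339 with PF-03084014, 2124 and 2177 with dexamethasone and 2158 and 2411 in DMSO. Its change of -0.22 ± 0.10 did not pass the test (adjusted p = 0.232), and combination replicate 1 lay just below the lower DMSO array.

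All 4 measured genes of the BRCA1 axis were lower on both combination arrays than on both DMSO arrays, and BRCA1 itself was called. BRCA1, the tumour suppressor that promotes end resection and recruits PALB2, read 1056 and 1180.3 in the combination, 1416 and 1648 with PF-03084014, 1371 and 1504 with dexamethasone and 1562 and 1690.1 in DMSO. The combination values did not overlap those of any other group. It changed by -0.54 ± 0.10 in the combination (adjusted p = 0.0320), by -0.089 with PF-03084014 and by -0.18 with dexamethasone. The call for BRCA1 was among the least stable: it was made in 2 of the 8 fits that left out 1 array, those without a PF-03084014 array, and not with the mean of its probe sets (-0.46, adjusted p = 0.0628). BARD1, the obligate partner of BRCA1 in its ubiquitin ligase, had 1630.5 and 2010.0 in combination-treated cells, 2313 and 2369 in PF-03084014 cells, 1881 and 1944 in dexamethasone cells and 2105 and 2334 in DMSO cells. The estimate for BARD1, -0.29 ± 0.11, did not pass the test (adjusted p = 0.153), and of its 2 dimmer probe sets 1 was called at -1.06 (adjusted p = 0.0461 over probe sets) and the other read -0.10. BRIP1, a helicase that binds BRCA1 and is also a Fanconi protein, read 1411 and 1649 in the combination and 1991 and 2338 in DMSO. Its change of -0.50 ± 0.12 had an adjusted p of 0.0525, just outside the threshold. PALB2, which bridges BRCA1 to BRCA2, changed by -0.35 ± 0.14 (adjusted p = 0.188).

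Of the strand exchange genes, RAD51C, RAD51AP1, RAD54L and RAD54B fell in the combination, and RAD54B had the largest called fall of the set. RAD54B, a DNA-dependent ATPase that helps the broken end invade the sister strand, had 606 and 555 (combination), 902 and 1027 (PF-03084014), 976 and 986 (dexamethasone) and 1155 and 1152 (DMSO). The combination mean was 50.3% of the DMSO mean on the log scale, and the arrays of each drug alone also lay below both DMSO arrays. The change was -0.99 ± 0.078 in the combination (adjusted p = 0.00400), -0.26 with PF-03084014 and -0.23 with dexamethasone. RAD54L, its close relative with the same role, read 939 and 908 in combination-treated cells, 1451 and 1369.6 in PF-03084014 cells, 1405 and 1301 in dexamethasone cells and 1592 and 1664 in DMSO cells. Its combination mean was 56.7% of DMSO, and it changed by -0.82 ± 0.058 (adjusted p = 0.00361), beside -0.21 for PF-03084014 and -0.27 for dexamethasone. RAD51AP1, which stimulates strand invasion, gave 3491 and 3443 in the combination, 4397 and 4758 with PF-03084014, 3758 and 3874 with dexamethasone and 4092 and 4439 in DMSO. Its fall was smaller, -0.30 ± 0.059 (adjusted p = 0.0350), and the PF-03084014 arrays overlapped DMSO (0.10). RAD51C, which also serves strand exchange, showed 1499.7 and 1424 (combination), 1885 and 1776 (PF-03084014), 1810.4 and 1864 (dexamethasone) and 1786 and 1766 (DMSO). It was the smallest of the called falls, -0.28 ± 0.048 (adjusted p = 0.0233), while the estimates were 0.044 with PF-03084014 and 0.049 with dexamethasone. Averaged over its probe sets, RAD51C changed by -0.44 and was still called (adjusted p = 0.0456). After the arrays were shifted to the same median, neither RAD51C (adjusted p = 0.0923) nor RAD51AP1 (adjusted p = 0.0796) was called, nor without the intensity trend (adjusted p = 0.054 and 0.0687). XRCC2 and XRCC3, which act in the same step, had low intensities and were not called. XRCC3 read 76.1 and 63.0 in the combination, 78.0 and 88.3 with PF-03084014, 134 and 99.6 with dexamethasone and 122 and 112 in DMSO. The size of its change, -0.76 ± 0.21, was large but so was its error (adjusted p = 0.0844). XRCC2 read 214 and 349 on the 2 combination arrays, which lay on either side of DMSO (294 and 272), a change of -0.05 ± 0.28.

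**Figure D2:**
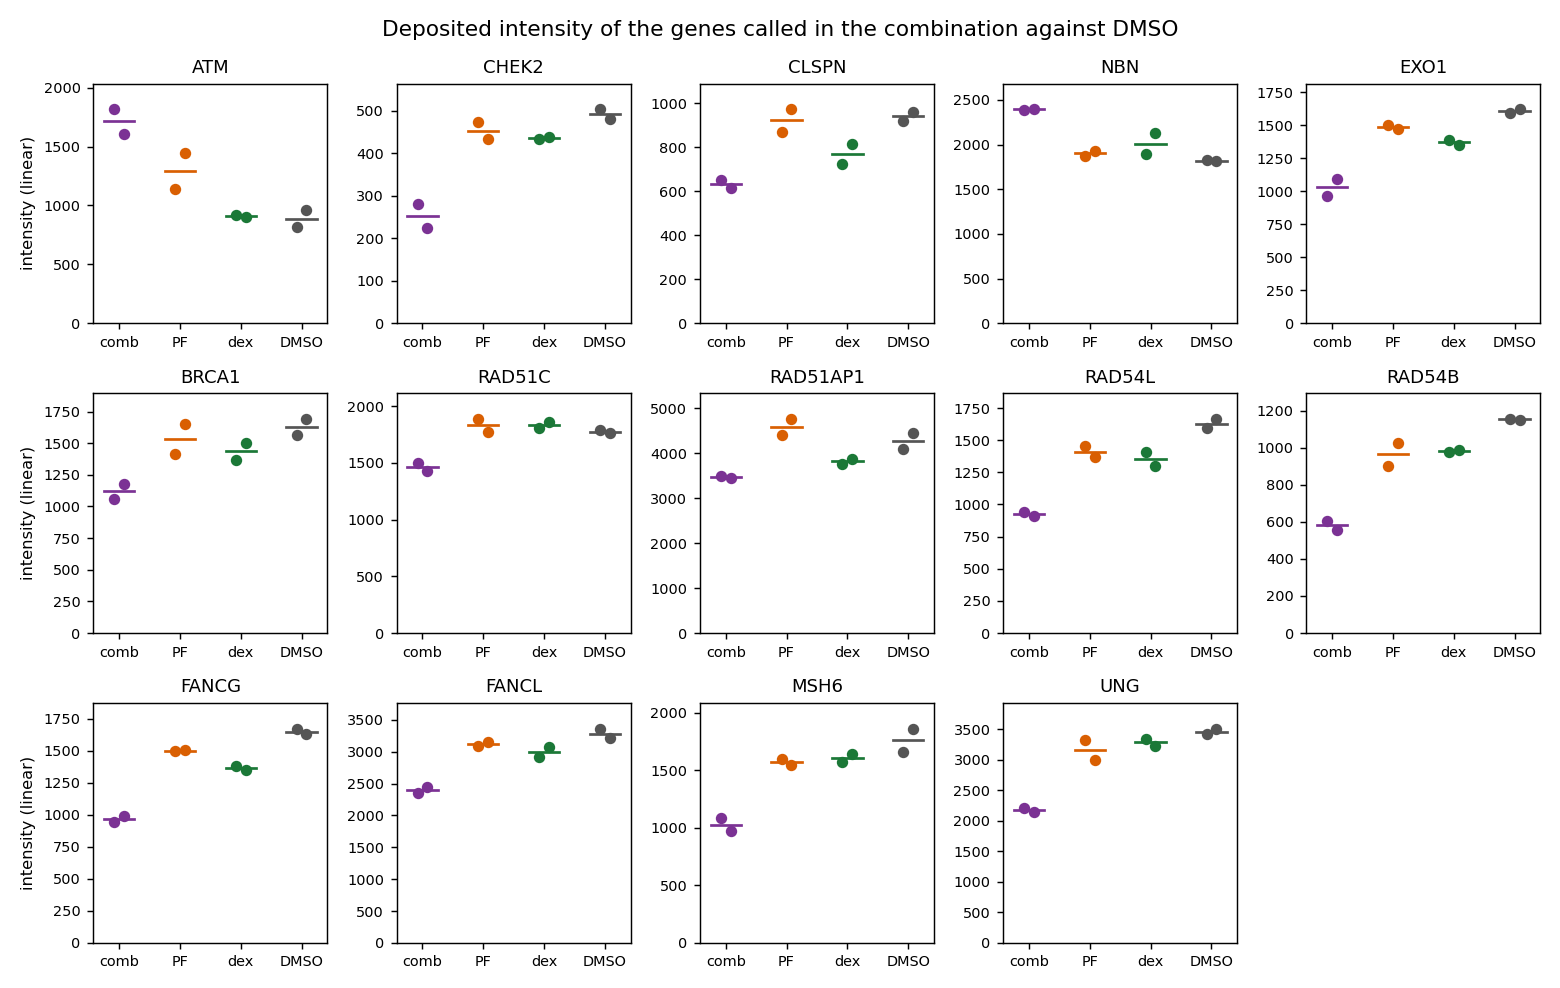
Deposited intensity (linear axis from 0) of the 14 genes called in the combination against DMSO, in a panel each, with a point per array and a bar at the mean of the 2 arrays. The groups are the combination (comb), PF-03084014 (PF), dexamethasone (dex) and DMSO. ATM and NBN are highest in the combination, and the other 12 genes are lowest there.

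Among the Fanconi genes, FANCG and FANCL fell. FANCG, a scaffold subunit of the core complex, had the smallest adjusted p of the 28 genes, with 941 and 992 in combination-treated cells, 1499 and 1506 in PF-03084014 cells, 1383 and 1352 in dexamethasone cells and 1671 and 1629 in DMSO cells. The 4 groups did not overlap, with the combination lowest, then dexamethasone, then PF-03084014, then DMSO. The change was -0.77 ± 0.042 in the combination (adjusted p = 0.00229), -0.13 with PF-03084014 and -0.27 with dexamethasone. FANCL, the ubiquitin ligase subunit that marks the FANCI-FANCD2 pair, read 2359.5 and 2441 in the combination, 3092 and 3148 with PF-03084014, 2921 and 3072 with dexamethasone and 3358 and 3213 in DMSO. It changed by -0.45 ± 0.044 (adjusted p = 0.00565), with -0.074 for PF-03084014 and -0.13 for dexamethasone. FANCI, part of the substrate of that ligase, read 3847 and 4086 (combination), 4689 and 5042 (PF-03084014), 4053 and 4061 (dexamethasone) and 4415 and 4701 (DMSO). The combination and dexamethasone arrays both lay below DMSO, and the combination change of -0.20 ± 0.057 was not called (adjusted p = 0.0884). Its 2 dimmer probe sets were called lower, at -0.41 (adjusted p = 0.0296 over probe sets) and -0.89 (adjusted p = 0.0271). FANCE, the core subunit that binds FANCD2, read 194 and 267 in the combination and 384 and 347 in DMSO, and FANCC, its neighbour in the core complex, 542 and 467 in the combination and 391 and 379 in DMSO. The estimate was -0.68 ± 0.17 for FANCE (adjusted p = 0.0691) and 0.39 ± 0.10 for FANCC (adjusted p = 0.0725), and neither was called. FANCM, the helicase that brings the core complex to DNA, changed by -0.11 ± 0.13 (adjusted p = 0.601).

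Both measured mismatch and uracil repair genes fell in the combination. MSH6, which recognises base mismatches, had 1083 and 969.7 in the combination, 1596 and 1543 with PF-03084014, 1567 and 1637 with dexamethasone and 1659 and 1857 in DMSO. UNG, the glycosylase that removes uracil from DNA, had 2219.8 and 2141 in combination-treated cells, 3329 and 3006 in PF-03084014 cells, 3348 and 3225 in dexamethasone cells and 3419 and 3508 in DMSO cells. In each case the 2 combination arrays lay below the other 6. MSH6 changed by -0.78 ± 0.080 in the combination (adjusted p = 0.00650), by -0.16 with PF-03084014 and by -0.13 with dexamethasone. UNG changed by -0.67 ± 0.059 (adjusted p = 0.00469), by -0.13 with PF-03084014 and by -0.076 with dexamethasone. For MSH6, averaging over its probe sets gave -0.42, which was not called (adjusted p = 0.127). That average includes 2 probe sets near the floor of 16, at 1.2 to 29.2 and 9.8 to 23.2 over all arrays. The remaining dimmer probe set read 119 and 65.9 in the combination and 169 and 191 in DMSO, and was not called.

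Neither drug alone moved a gene of the set past the threshold. With PF-03084014, 0 of the 28 genes were called by limma, beside 0.819% of all genes (162, with 0.47% higher and 0.349% lower). An unadjusted p under 0.05 was found for 5 of the 28 and for 2619 of all 19775 genes. The estimates ran between -0.50 for XRCC3 and 0.53 for ATM, with a median of -0.083 beside 0.018 over all genes. The estimate was below 0 for 18 of the 28 genes, against 46.9% of all genes. Both PF-03084014 arrays lay below both DMSO arrays for 14 of the 28, against 19.6% of all genes, and above them for 3, against 26.9%. With dexamethasone, 0 of the 28 were called, beside 0.101% of all genes (20, with 0.086% higher and 0.0152% lower). Of the 28, 8 had an unadjusted p under 0.05, as did 1772 of all 19775 genes. There the estimates ran between -0.29 for XRCC2 and 0.24 for FANCC, with a median of -0.13 beside 0.014 over all genes, and were below 0 for 22 of the 28, against 43.9% of all genes. On both dexamethasone arrays, 15 of the 28 genes lay below DMSO, against 17.7% of all genes, and 4 above it, against 24.9%. These comparisons share the DMSO arrays with each other and with the combination.

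**Figure D3:**
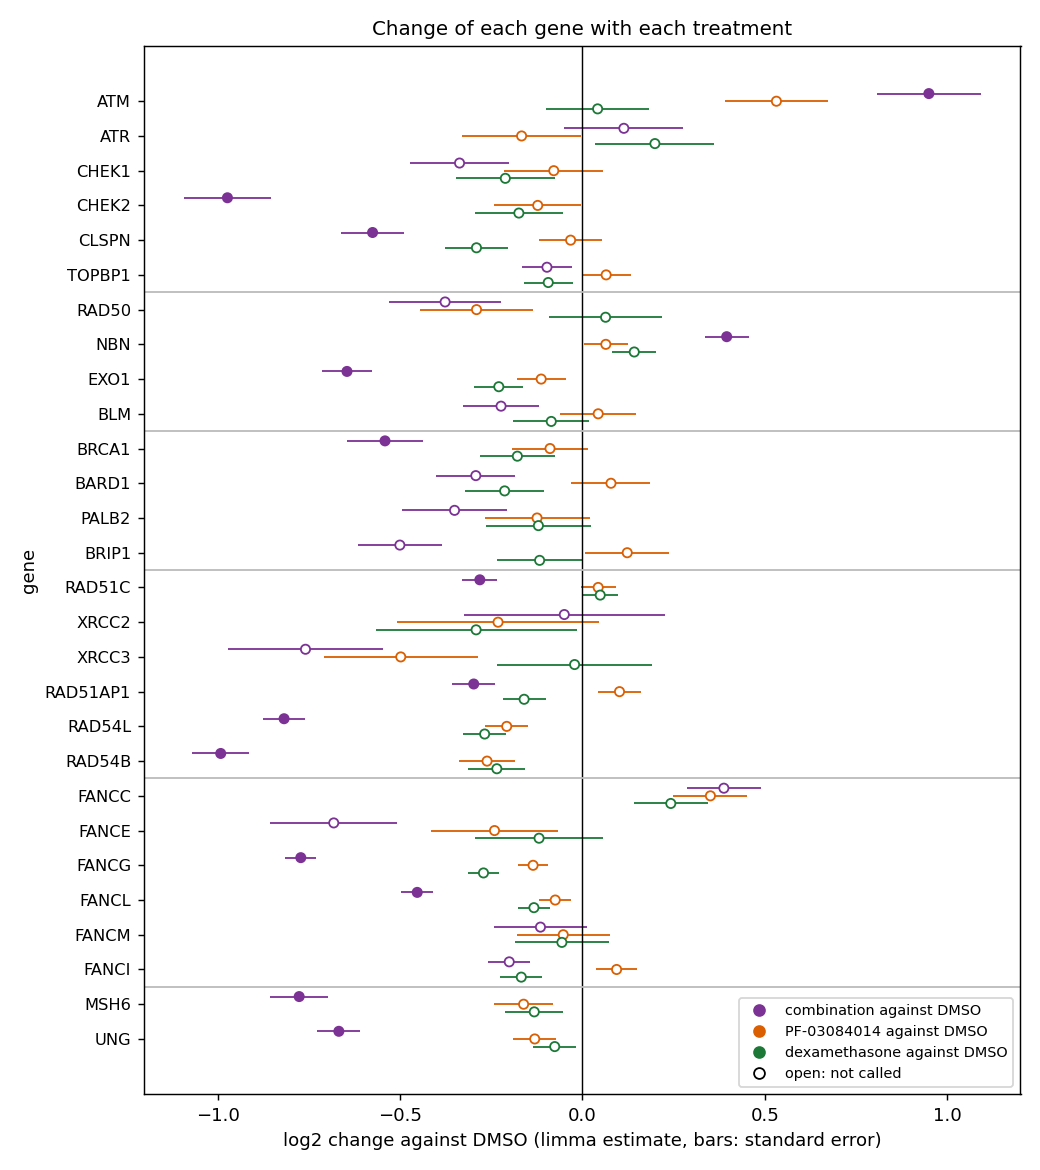
Log2 change against DMSO of each of the 28 genes (rows, by role) in the combination, with PF-03084014 and with dexamethasone, as limma estimates with standard errors as bars. Filled points passed an adjusted p of 0.05, and all 14 of them are combination points.

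Set against each drug alone, part of the set was again lower in the combination. Against dexamethasone, 9 of the 28 genes were lower and 1, ATM, was higher, beside 7.23% of all genes called, 3.97% lower and 3.26% higher. The lower ones were CHEK2 (-0.80 ± 0.12), EXO1 (-0.42 ± 0.067), RAD51C (-0.33 ± 0.048), RAD54L (-0.55 ± 0.058), RAD54B (-0.76 ± 0.078), FANCG (-0.50 ± 0.042), FANCL (-0.32 ± 0.044), MSH6 (-0.64 ± 0.080) and UNG (-0.59 ± 0.059). ATM was 0.91 ± 0.14 (adjusted p = 0.0288). Against PF-03084014, 11 of the 28 were lower and none higher, beside 2.84% of all genes called, 1.75% lower and 1.09% higher. Those were CLSPN (-0.54 ± 0.086) and RAD51AP1 (-0.40 ± 0.059), and also CHEK2, EXO1, RAD51C, RAD54L, RAD54B, FANCG, FANCL, MSH6 and UNG, with changes between -0.85 for CHEK2 and -0.32 for RAD51C. ATM did not pass the test there (0.42 ± 0.14, adjusted p = 0.213). On both combination arrays, 16 of the 28 genes lay below both dexamethasone arrays, against 23.4% of all genes, and 20 lay below both PF-03084014 arrays, against 20.1%. Both comparisons use the combination arrays of the comparison with DMSO. A fit of only the 4 arrays compared called none of the 19775 genes in either, and so none of the 28. Leaving out an array of the single drug compared lost every call of the 28 genes, and all or nearly all calls over all genes. Against PF-03084014, leaving out a dexamethasone array did the same. The loss was thus not particular to the 28 genes.

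Whether the effect of the combination differed from the sum of the single effects was tested as an interaction. limma called 0 of 19775 genes (0%) and 0 of the 28, and 1792 genes and 11 of the 28 had an unadjusted p under 0.05. Without combination replicate 1, 3 of the 28 and 1016 of all genes were called. The estimate was below 0 for 24 of the 28 genes, against 49.4% of all genes, with a median of -0.24 beside 0 over all genes. The estimate furthest below 0 was that of CHEK2, -0.68 ± 0.17 (adjusted p = 0.397).

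The proliferation markers had a median change of -0.39 in the combination against DMSO, and GINS2, a subunit of the replicative helicase, fell most (-0.97 ± 0.11, adjusted p = 0.00796). Array by array, the median of the 28 repair genes minus their DMSO mean was -0.51 and -0.38 in the combination, -0.093 and -0.042 with PF-03084014, -0.17 and -0.10 with dexamethasone and -0.032 and 0.032 in DMSO. That of the proliferation markers was -0.34 and -0.38 in the combination, -0.0072 and -0.025 with PF-03084014, -0.11 and -0.12 with dexamethasone and -0.018 and 0.018 in DMSO.

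**Figure D4:**
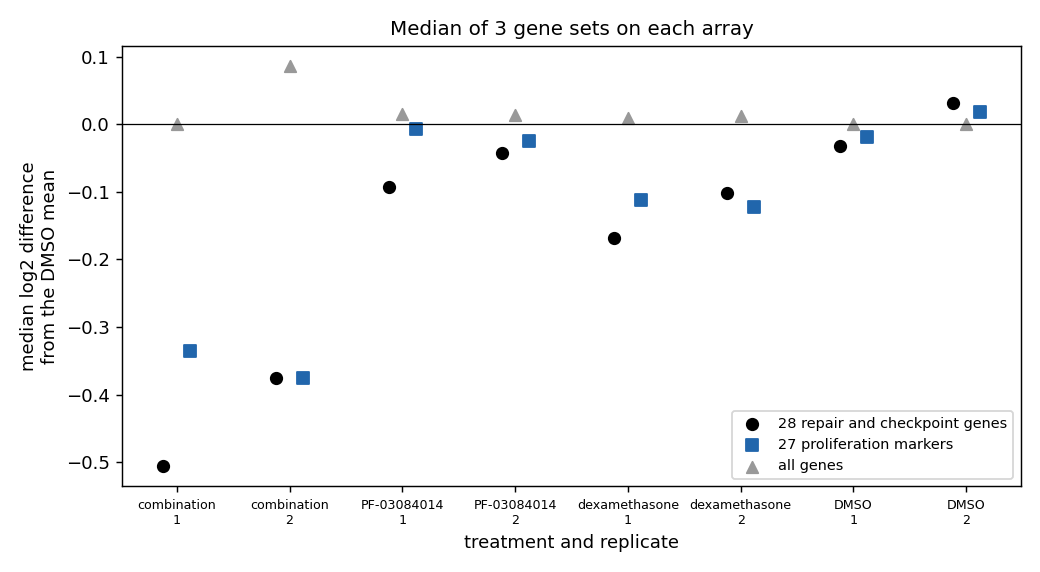
Median log2 difference from the DMSO mean on each of the 8 arrays (columns, by treatment), for the 28 repair and checkpoint genes (circles), 27 proliferation markers (squares) and all genes (triangles). The circles and squares of both combination arrays lie between -0.51 and -0.34, while the triangles of all arrays lie between 0 and 0.086.

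Other genes of the same pathways were read from separate lists. Of 41 further homologous recombination and Fanconi genes measured, 9 were lower and none higher in the combination against DMSO, where 5.52% of all genes were lower and 6.42% higher. The median change of the list was -0.19, beside 0.064 over all genes. RECQL4, a helicase of replication and recombination, fell most (-0.96 ± 0.13, adjusted p = 0.0139), and the others were UBE2T, which pairs with FANCL, FIRRM, RAD51B, EME1, FIGNL1, RMI1, MCM8 and USP1. Against the same 5.52% and 6.42% of all genes, 5 of 21 other checkpoint genes were lower and none higher (CDC25A, PKMYT1, CDC25C, TIPIN and WEE1). CDC25A, a phosphatase that CHEK1 and CHEK2 mark for destruction, changed by -0.92 ± 0.092 (adjusted p = 0.00602), and the median of the list was -0.13. Of 21 other mismatch and base excision repair genes, 4 were lower (5.52% of all genes) and none higher (LIG1, PARP2, FEN1 and MUTYH), with a median of -0.24. PCNA is on this list and also among the proliferation markers, and LIG1, the ligase that joins replicated fragments, changed by -0.70 ± 0.072 (adjusted p = 0.00652). None of these genes, and no proliferation marker, was called with either drug alone. The smallest p-values with PF-03084014 belonged to SWSAP1 (0.25, adjusted p = 0.360), H2AX (0.19, adjusted p = 0.280), NEIL2 (-0.76, adjusted p = 0.118) and E2F2 (0.43, adjusted p = 0.113) in the 4 lists. With dexamethasone they belonged to BRCC3 (0.22, adjusted p = 0.237), PKMYT1 (-0.25, adjusted p = 0.305), LIG1 (-0.23, adjusted p = 0.442) and CDC45 (-0.23, adjusted p = 0.277).

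Among the 28 genes, 14 had more than 1 probe set, 34 further probe sets in all. In the combination against DMSO, 5 of the 34 were called lower and 1 higher, with p-values adjusted over all 41097 probe sets used, of which 3.98% were called lower and 3.97% higher. The called ones belonged to CHEK1, BARD1, FANCI and ATM and went the way of the gene's brightest probe set. Probe sets of NBN, CLSPN, RAD50, FANCC, FANCM and MSH6 disagreed in sign. For MSH6, the probe set that did not fall read 5.0 and 19.8 in the combination, near the floor of 16.

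**Figure D5:**
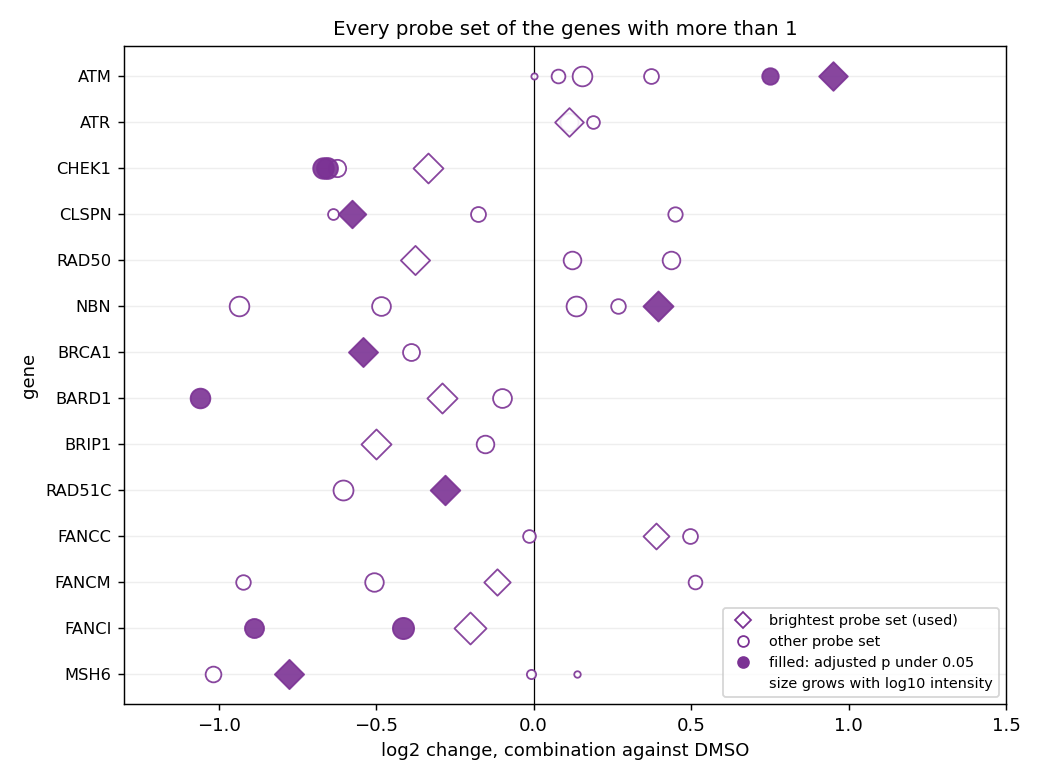
Log2 change in the combination against DMSO of every probe set of the 14 genes with more than 1. Diamonds are the brightest probe set, circles the others, sizes grow with log10 of the mean intensity, and filled marks have an adjusted p under 0.05 over probe sets. The probe sets of CHEK1, BRCA1, BARD1, BRIP1, RAD51C and FANCI all lie below 0.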

How the data were processed

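RNA of CUTLL1 cells was labelled with a 3' IVT kit and hybridised to Affymetrix arrays of 54675 probe sets. The deposited values are linear intensities per probe set. How the authors summarised and scaled them was not given in the sources used here, and each array's trimmed mean (2% at each end) was 425 to 437. Values below 16 were set to 16 and log2 was taken. Of 41097 probe sets listing 1 gene, the brightest of each of 19775 genes (mean log2 over the 8 arrays) was used. limma 3.58.1 (R 4.3.3) fitted 4 group means to all 8 arrays (4 residual degrees of freedom, eBayes with intensity trend), with Benjamini-Hochberg adjustment over all genes and a two-sided threshold of 0.05. The fit was tested on simulated data. Genes called in any comparison, and the brightest and most changed of each role, are given on every array. From the other lists, called genes and the most changed, or the smallest p where none was called, are named. The members and lists were chosen with earlier results of these data known. The number of arrays limits the precision. Alternatives varied scaling, floor, pseudocount, filter, probe sets, trend, replicate block, arrays in the fit and single arrays left out.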

Additional observations from a re-analysis of the deposited data

How the results depend on the processing

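PF-03084014 and dexamethasone each gave 0 of these genes called under every alternative run. In the combination against DMSO, 12 to 16 of the 28 were called (14 as reported), and 17 of 27 without the genes below the median intensity, except in the fit of only the groups compared, which gave 0, and with single arrays left out (7 to 14). Against dexamethasone and against PF-03084014, that fit also gave 0, leaving out single arrays gave 0 to 11 and 0 to 12, and without the intensity trend the count against PF-03084014 was 4. The interaction could not be fitted on fewer groups, and with single arrays left out it called 0 to 3. Over all genes, the calls ranged between 0 and 6219 in the combination against DMSO (2360 as reported), 0 and 433 with PF-03084014 (162), 0 and 59 with dexamethasone (20), 0 and 5826 against dexamethasone (1430), 0 and 3911 against PF-03084014 (562) and 0 and 1016 for the interaction (0). The 17 of 27 against DMSO stood beside 31.3% of the 9888 genes kept, and the 14 of 28 as reported beside 11.9%. The excess of the repair genes over all genes was thus smaller without the dimmer genes. With 16 of 28 called, the share of all genes was 7.29% with the arrays shifted and 14.1% with the pseudocount. Without the intensity trend, the 4 of 28 called against PF-03084014 stood beside 1.31% of all genes. Counts of the 28 genes alone therefore do not show how far they exceeded all genes. With single arrays left out, their highest counts against dexamethasone and against PF-03084014 came without combination replicate 1. That same fit gave the most calls over all genes in both comparisons, so those counts do not show a larger excess. With all arrays shifted to the same median, the median change of the 28 genes was -0.49 against DMSO, where that of all genes was -0.067 (0.064 as reported), so that relative to all genes it was -0.43 in both. The shifted medians were -0.46 against dexamethasone, -0.48 against PF-03084014 and -0.39 for the interaction. Quantile normalization gave -0.25 against dexamethasone and -0.19 for the interaction. The mean of all probe sets gave -0.43 against DMSO and -0.24 against dexamethasone. With single arrays left out, the median ran from -0.51 (without combination replicate 2) to -0.31 against DMSO, -0.35 to -0.24 against dexamethasone, -0.42 to -0.34 against PF-03084014, -0.27 to -0.17 for the interaction, -0.17 to -0.092 for dexamethasone and -0.10 to -0.042 for PF-03084014. Of the changes named, these turned sign. With the mean of all probe sets, NBN was -0.12 and RAD50 0.060 in the combination, NBN was -0.18 with PF-03084014, and ATM was -0.045, FANCC -0.067 and MSH6 0.15 with dexamethasone. The means for ATM and MSH6 include probe sets near or below the floor. With the arrays shifted, ATR was -0.017, and with quantile normalization XRCC2 was 0.0052, both in the combination. Leaving out 1 array gave a range of -0.093 (without combination replicate 2) to 0.32 for ATR, -0.40 to 0.30 (without combination replicate 1; 0.0072 without DMSO replicate 1) for XRCC2 and -0.25 to 0.019 (without combination replicate 1) for FANCM in the combination. It gave -0.11 to 0.047 for CLSPN and -0.20 to 0.021 for BRCA1 with PF-03084014, the higher without its replicate 1, and -0.076 (without DMSO replicate 1) to 0.16 for ATM with dexamethasone. Except for NBN, no gene called in the combination against DMSO turned sign there. The causes were not tested. Same-numbered replicates of different groups correlated at -0.010 to 0.082 across genes. With 2 arrays per group, these correlations cannot tell whether arrays of the same number were prepared together, which was not given. With the replicate number as a block, 16 of the 28 genes were called against DMSO (11.5% of all genes), 12 against dexamethasone (6.54%) and 9 against PF-03084014 (1.92%). On 2 arrays per group, the standard errors of the 28 genes in these comparisons ran between 0.042 and 0.28.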

Other observations

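Non-homologous end joining rejoins broken ends without a template. Of 13 measured genes of this pathway, 3 were higher and none lower in the combination against DMSO, where 6.42% of all genes were higher, although the median of the list was -0.12. They were PAXX, which stabilises Ku at the break (0.85 ± 0.17, adjusted p = 0.0358), the ligase LIG4 (0.73 ± 0.17) and the polymerase POLM (0.51 ± 0.11). None was called with a single drug. The smallest p belonged to LIG4 with PF-03084014 (0.62, adjusted p = 0.198) and to POLL with dexamethasone (-0.94, adjusted p = 0.277).

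Of 21 measured p53 target genes, 2 were higher and 4 lower in the combination against DMSO, with a median of -0.068. Of all genes 6.42% were higher and 5.52% lower, and the share of the list that was higher was near the first of these. TP53INP1, a promoter of p53-dependent death and autophagy, rose by 3.26 ± 0.28 on the log2 scale (adjusted p = 0.00459), and RRM2B, a ribonucleotide reductase subunit, by 0.50 ± 0.10. CDKN1A, the p21 inhibitor of cell cycle kinases, fell most (-1.82 ± 0.28, adjusted p = 0.0176), and DDB2, PMAIP1 and PPM1D were also lower. TP53INP1 had the smallest p of the list with each drug alone and was not called there, at 2.02 with PF-03084014 (adjusted p = 0.0568) and 2.50 with dexamethasone (adjusted p = 0.0915).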
